A study of Caenorhabditis elegans with 16 samples.

Results

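The genome of early Caenorhabditis elegans embryos was divided here by 2 repressive histone marks, each mapped by ChIP-seq in a mutant that lacks the methyltransferase mainly known for the other mark. H3K9me2 was mapped in embryos of the set-25(n5021) III strain and H3K9me3 in embryos of the met-2(n4256) III strain, each against an input of sheared chromatin. Embryos were taken before the bean stage, from worms grown at 20 °C for 60 to 65 h after L1 synchronisation, and were fixed in 2% formalin. The labels list 8 samples for these 4 groups, in 2 biological replicates, and the deposited table holds 1 column per group, so no difference can be set against replicate error and no test was run. The name of the met-2 H3K9me3 ChIP column ends in 1 and may mean replicate 1 alone, and the names of the other 3 columns used carry no number. The table holds counts for 198087 windows of 500 bp. The 191140 windows (96.5%) with at least 20 counts in all 4 inputs of the series were kept, which left out 6947.

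H3K9 methylation marks heterochromatin, the silent part of the genome. Worm chromosomes are holocentric, with no single centromere. Their arms are rich in repeats and their middle parts in broadly expressed genes. MET-2, related to mammalian SETDB1, makes H3K9me1 and H3K9me2 in worm embryos. SET-25 is the enzyme that H3K9me3 in these embryos depends on, and it can build on the product of MET-2 or reach some targets without it. H3K9me2 in set-25 embryos was thus made without SET-25, and H3K9me3 in met-2 embryos without MET-2. Neither group is a wild type, so the values show where each mark was found and not what was lost. Each mark also comes from its own strain, antibody and pair of libraries, and these cannot be told apart.

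The set-25 H3K9me2 ChIP held 19777605 counts and its input 44992666. The met-2 H3K9me3 ChIP held 58645635 and its input 114221896. The median kept window held 41, 241, 204 and 488 counts in these 4 libraries, and the 95% Poisson interval of the thinnest one ran from 29.4 to 55.6 counts. A single window of set-25 H3K9me2 is thus less precise than one of met-2 H3K9me3. Gaps in the inputs on chromosome III, which carries both mutations, were set beside the strain labels. From 8376501 to 8377500 the met-2 H3K9me3 input held 0 counts where its flanks predicted 1225, and the set-25 H3K9me2 input held 513 of 572. From 13287501 to 13289000 the set-25 H3K9me2 input held 4 counts of 599.6 predicted, and the met-2 H3K9me3 input held 4332 of 2046. The set-25 H3K9me2 input had other such gaps, on III and elsewhere. From 13091501 to 13092500 on III it held 2 counts of 376.5 predicted. No gene was placed, so neither gap is shown to be that of the mutation in the label.

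Enrichment was taken as log2 of ChIP over its own input, each scaled to its column's total, and then centred on the median of the kept windows. A value of 1 is thus 2-fold above the median window of the same library. Before centring, the medians were -1.33 for set-25 H3K9me2 and -0.35 for met-2 H3K9me3. The centred values had an SD of 1.40 for set-25 H3K9me2 and 0.66 for met-2 H3K9me3. Their 99th percentiles were 4.91 and 2.70, so that set-25 H3K9me2 had the wider range.

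Most of the genome carried neither mark above 2-fold, and the remainder was split unequally. Set-25 H3K9me2 passed 2-fold in 45467 windows (23.8%) and met-2 H3K9me3 in 12087 (6.32%). H3K9me2 alone was found in 42116 windows, which add up to 21.1 Mb, and H3K9me3 alone in 8736 windows, or 4.37 Mb. Both marks were found in 3351 windows (1.75%), or 1.68 Mb, and neither in 136937 (71.6%). The windows with both were 27.7% of those with H3K9me3 and 7.37% of those with H3K9me2. Without centring, H3K9me2 alone covered 9.73% of windows in place of 22.0%, H3K9me3 alone 3.57% in place of 4.57% and both 0.53%.

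The 2 marks divided each autosome into arms and middle, taken as the outer 25% at either end and the remaining 50%. Of the autosomal windows with H3K9me2 alone, 89.7% lay on arms. Of those with H3K9me3 alone, 14.98% did. Arms held 49.5% of all kept autosomal windows. With the input of the other mark in the same strain in place of the own one, the share of H3K9me2 alone on arms was 88.2%, but that of H3K9me3 alone was 46.2%, close to that of all windows. Of the autosomal windows with both marks, 73.7% lay on arms, where most H3K9me2 windows also lay. No arm share was computed from the shares of each mark, so the 73.7% has no reference of that kind. For the number of windows with both, the product of these shares gives 2875 genome-wide. Taken within each arm, each middle and X, it gives 2232. With own inputs 3351 were found. On arms, 46.7% of windows passed 2-fold for H3K9me2, 4.19% for H3K9me3 and 2.69% for both. In the middles these shares were 5.88%, 9.29% and 0.94%. Every arm had a larger H3K9me2 share than every middle, with 22.2% to 71.3% over the 10 arms and 4.17% to 8.73% over the 5 middles. H3K9me3 did not separate them as fully. It ran from 1.35% to 7.64% over the arms and from 6.51% to 11.6% over the middles, with own inputs. The middle of IV was exceeded by 2 arms, the right one of V and, at 6.54%, the left one of II. With the input of the other mark, 17531 of 78661 windows on arms and 13904 of 80193 in middles passed 2-fold for H3K9me3. The higher H3K9me3 share of middles was thus not kept with that input.

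**Figure D1:**
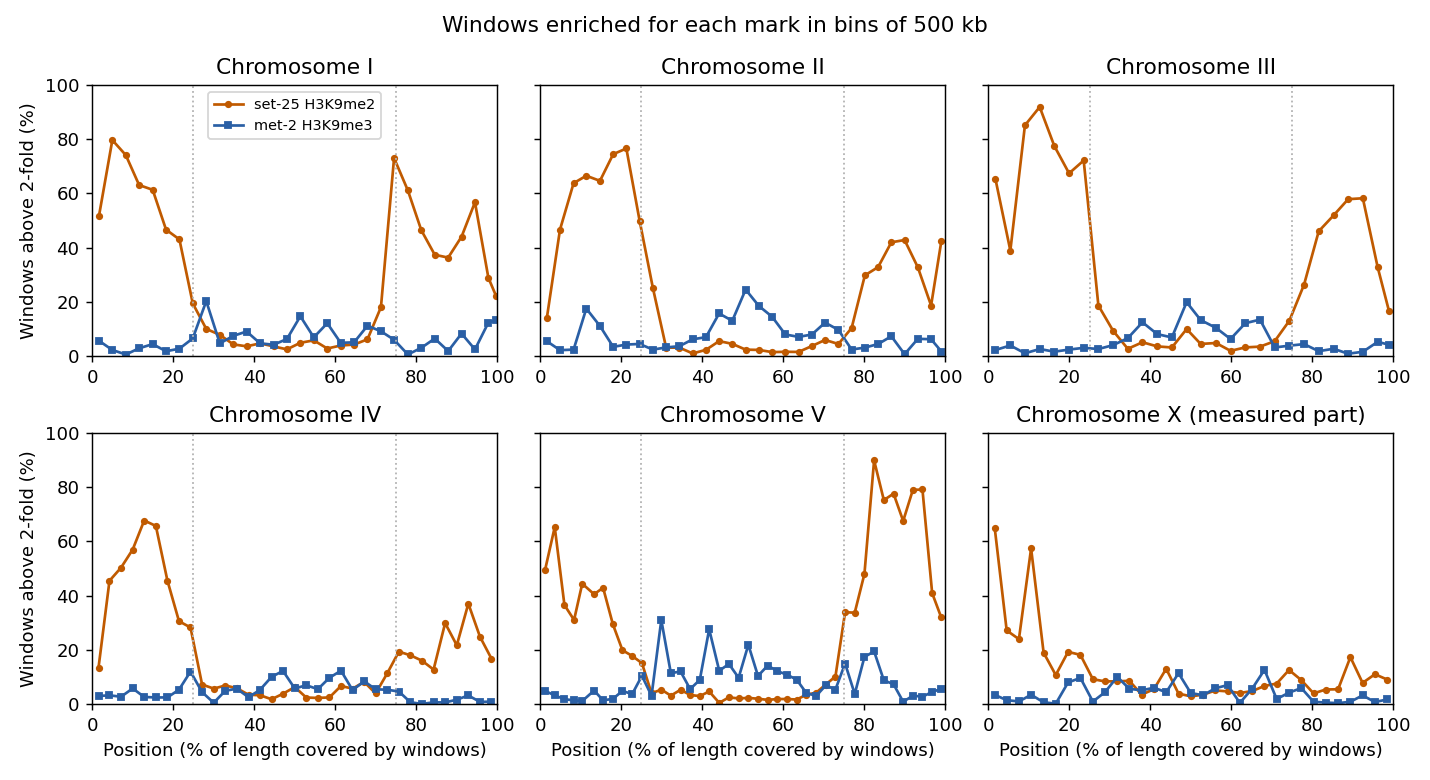
Share of kept 500 bp windows above 2-fold (y axis, percent) for set-25 H3K9me2 (orange circles) and met-2 H3K9me3 (blue squares) in bins of 500 kb along each chromosome (x axis, percent of the length covered by windows). Each point is 1 bin, with own inputs, and dotted lines mark 25% and 75%. H3K9me2 is high towards both ends of the autosomes and on the left of X, and H3K9me3 exceeds it in 60 of 167 autosomal bins, all between 26.5% and 75.3% of the length.

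The H3K9me2 share changed steeply along the autosomes. In steps of 5% of the length, it was 43.4% between 20% and 25%, 13.2% between 25% and 30% and 5.46% between 30% and 35%. Towards the right end it was 4.63% between 65% and 70%, 15.3% between 70% and 75% and 32.0% between 75% and 80%. H3K9me2 was not highest at the very tips. The outermost 5% held 44.0% at the left and 30.7% at the right, against 65.0% between 10% and 15% and 51.8% between 90% and 95%. H3K9me3 changed less, with its largest share, 13.4%, between 50% and 55%. All these shares are with own inputs.

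In bins of 500 kb, with own inputs, the H3K9me3 share exceeded the H3K9me2 share in 60 of 167 autosomal bins. These formed an unbroken stretch on II from 4.5 to 11.5 Mb, on III from 4.5 to 9.5 Mb and on V from 6 to 14 Mb. On I they lay between 4 and 10.5 Mb and on IV between 7 and 12.5 Mb, with exceptions within those limits. On I H3K9me2 was the higher in 1 bin and the shares were equal in 1, and on IV H3K9me2 was the higher in 2 bins. On IV the stretch therefore began at 40.01% of the length, compared with 26.5% to 32.6% on the other autosomes. The bin richest in H3K9me2 was on III from 1500001 to 2000000, with 91.9% of windows above 2-fold and 2.64% for H3K9me3. The bin richest in H3K9me3 was on V from 6000001 to 6500000, with 31.1% and 5.40% for H3K9me2. The H3K9me2 maximum of V, from 17000001 to 17500000, stood apart: 89.9% of its windows carried H3K9me2 and 19.5% H3K9me3. The H3K9me2 maxima of the other 4 autosomes, from 67.7% to 91.9%, had H3K9me3 in 2.29% to 4.29%.

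Of the windows in the measured part of X, 12.5% carried H3K9me2, 4.15% H3K9me3 and 1.48% both, with own inputs. The H3K9me2 share lay between those of arms and middles, and the H3K9me3 share was close to the 4.19% of arms. H3K9me2 was gathered at the left end, with 65.0% of windows in the first 500 kb and 57.4% from 1500001 to 2000000. The bin richest in H3K9me3, from 11000001 to 11500000, reached 12.7%. H3K9me3 had the larger share in 9 of 33 bins. Positions of X beyond 16493500 are not analysed here.

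**Figure D2:**
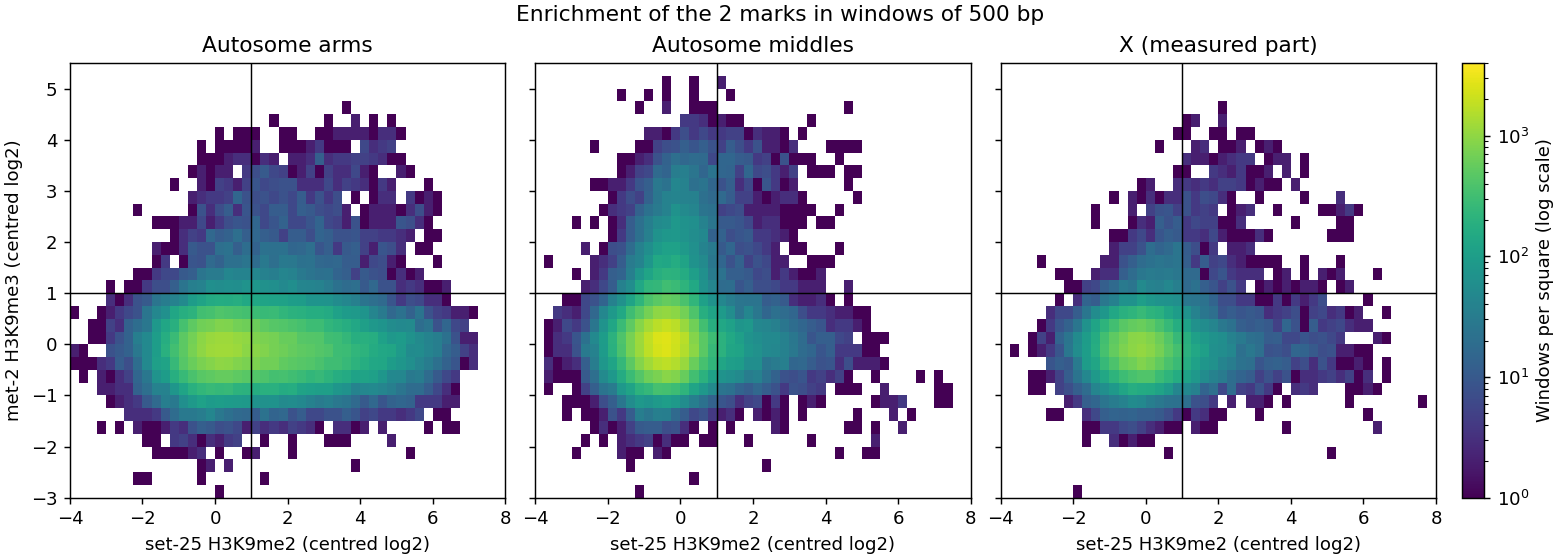
Centred log2 enrichment of set-25 H3K9me2 (x axis) against met-2 H3K9me3 (y axis) in kept windows of 500 bp, with colour for the number of windows per square on a log scale and lines at a value of 1. The 78661 windows of arms spread further along H3K9me2 (SD 1.58) than the 80193 of middles (0.85), and those of middles further along H3K9me3 (0.73, against 0.60 on arms). With own inputs, as drawn, 92.2% of the 116 windows of X above 3 for H3K9me3 lie to the right of the H3K9me2 line. The other mark's input gives 16.5% of the 654 windows then above 3.

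The correlation of the marks differed with scale and with the input. Across single windows of the genome, with own inputs, it was close to 0 (Pearson's r = 0.010, Spearman's rho = -0.016, 191140 windows). In bins of 500 kb it was negative (r = -0.36, rho = -0.43, 199 bins), with r = -0.047 at 5 kb and -0.16 at 50 kb. Pooled over arms, middles and X, r over windows of 500 bp was 0.051, 0.11 and 0.14. It was above 0 in 12 of the 16 chromosome parts, and the 4 exceptions were both arms of I and of II. At 500 kb the pooled values were -0.015, -0.14 and -0.035, all nearer 0 than the genome-wide value at that scale. With the input of the other mark, r over single windows was -0.18 genome-wide, -0.18 on arms, -0.34 in middles and -0.23 on X, and it was above 0 in 0 of 16 parts. The negative sign was then present at the smallest scale as well. These are descriptions over windows that share 4 libraries and are not independent. With a pseudocount of 1 CPM the genome-wide r was -0.0068.

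Within each chromosome part, windows with met-2 H3K9me3 carried set-25 H3K9me2 more often than the part as a whole, when each ChIP was set against its own input. On arms 64.2% of H3K9me3 windows carried H3K9me2, where 46.7% of all windows did. In middles it was 10.1% where 5.88% did, and on X 35.7% where 12.5% did. The direction was the same in all 16 parts with own inputs. The excess was largest on the left arm of V, with 68.6% against 36.8%, and smallest in the middle of II, with 5.49% against 5.30%. With own inputs it grew with the strength of H3K9me3. Of windows above 3 for H3K9me3, 83.1% carried H3K9me2 on arms (302 windows at 58 loci), 30.8% in middles (904 windows at 124 loci) and 92.2% on X (116 windows at 16 loci).

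This excess depended on the input. With the input of the other mark from the same strain in place of the own one, it was below 0 in all 16 parts, with 34.9% against 42.1% on arms, 4.27% against 5.24% in middles and 9.25% against 9.49% on X. More windows were then above 3 for H3K9me3, 2170 on arms, 2410 in middles and 654 on X. The growth with H3K9me3 strength was not seen on arms, where the share with H3K9me2 fell to 29.0% of windows above 3. It was seen in middles, where the share rose from 4.27% to 5.60%, beside 5.24% of all windows. On X it rose from 9.25% to 16.5%, beside 9.49% of all windows. With the sum of all 4 inputs the shares above 3 were 62.5% on arms, 16.6% in middles and 50.8% on X. The excess over all H3K9me3 windows was present in 13 of 16 parts with the input of the other strain. It was also present in 13 with the sum of all 4 inputs, which both marks then share. The inputs of the 2 experiments differed in composition. Log2 counts of the set-25 H3K9me2 and met-2 H3K9me3 inputs correlated at 0.10 over windows, while inputs of the same mark from both strains correlated at 0.86 (H3K9me2) and 0.96 (H3K9me3). Windows with both marks held 1.69 times the median count in the met-2 H3K9me3 input and 0.87 times in the set-25 H3K9me2 input. Exchanging the inputs of the 2 marks swaps both at once, so their difference enters the 2 ratios in opposite directions. The exchange can thus lower the overlap by itself. The part of these inputs in the excess cannot be told apart from the marks.

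**Figure D3:**
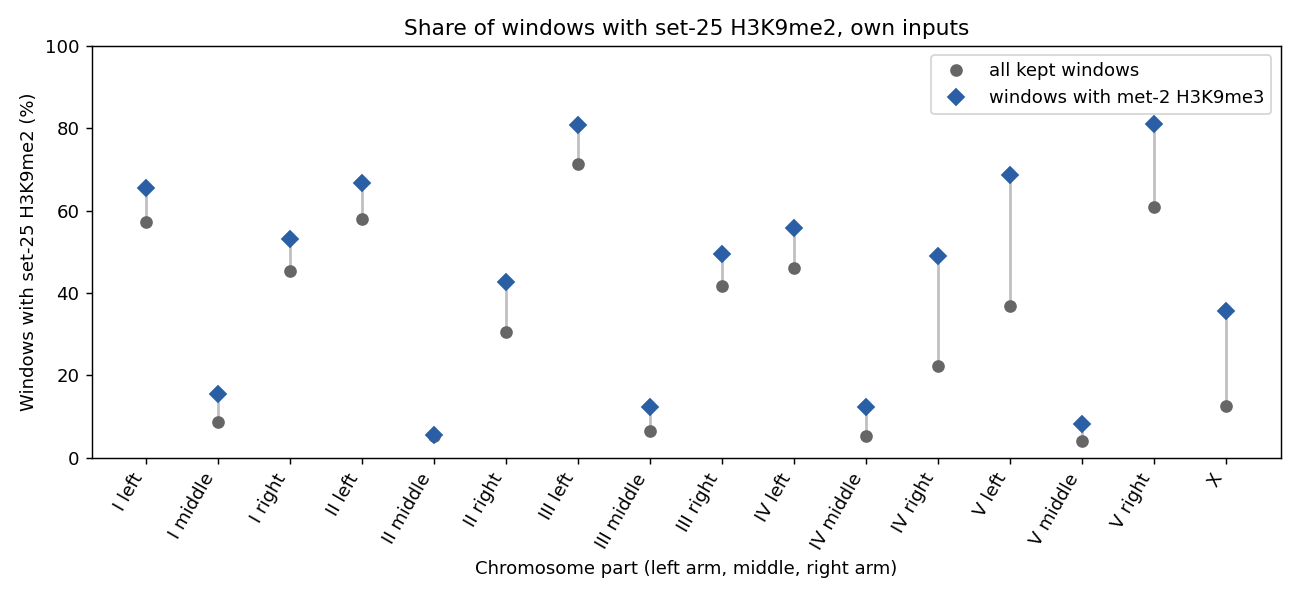
Percentage of windows with set-25 H3K9me2 above 2-fold (y axis) among all kept windows (grey circles) and among windows with met-2 H3K9me3 (blue diamonds) in each of the 16 chromosome parts (x axis), with own inputs. The diamond is above the circle in every part, by 0.19 percentage points in the middle of II and by 31.8 on the left arm of V, and it is below in every part once inputs are exchanged between the marks.

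Both marks formed domains, taken as at least 10 adjacent windows above 2-fold. H3K9me2 formed 1003 domains, which cover 9.39 Mb, and H3K9me3 296, which cover 2.56 Mb. They held 41.3% of the H3K9me2 windows and 42.3% of the H3K9me3 windows. Their median lengths were 7.0 and 7.5 kb. Of the H3K9me2 domains 895 lay on arms, 42 in middles and 66 on X, and of the H3K9me3 domains 71, 194 and 31. The right arm of V held the most H3K9me2 domains (161), followed by the left arms of III (143), II (120) and I (119). Of the 42 H3K9me2 domains in middles, 24 were on I. The middle of V held the most H3K9me3 domains (58), followed by the middle of II (46), and the right arm of V had 20.

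With own inputs most domains carried 1 mark, but the share with both differed between parts. Over the 1003 H3K9me2 domains the H3K9me3 level had a median of -0.12 (quartiles -0.29 and 0.12), just under the median window of its library, and 91 (9.07%) exceeded 1. On arms 63 of 895 (7.04%) exceeded 1, beside 3.87% of all 5 kb stretches there. In middles it was 14 of 42 (33.3%, beside 9.56%) and on X 14 of 66 (21.2%, beside 4.3%). With the same domains and the H3K9me3 ChIP over the input of the other mark, 259 on arms (28.9%, beside 14.9% of stretches), 23 in middles (54.8%, beside 14.3%) and 27 on X (40.9%, beside 9.5%) exceeded 1. The median over arm domains was then 0.63 in place of -0.13. Over the 194 H3K9me3 domains in middles the H3K9me2 level had a median of -0.17 (quartiles -0.44 and 0.24) and 17 (8.76%) exceeded 1. The domains of the 2 marks touched in 61 of the H3K9me2 domains (6.08%) and 60 of the H3K9me3 domains (20.3%). In middles the median H3K9me3 domain lay 674 kb from the nearest H3K9me2 domain, whereas on arms the median distance was 0. Arms held 895 H3K9me2 domains over 8.5 Mb and middles 42 over 0.34 Mb. Distances and touching also depend on these numbers, and no reference was computed for them.

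H3K9me3 domains on arms and X carried H3K9me2 more often. On arms 58 of 71 (81.7%) exceeded 1 for H3K9me2, with a median of 2.15, where 57.5% of all 5 kb stretches of the arms did. On X 16 of 31 (51.6%) exceeded 1, where 11.4% of the 5 kb stretches did. In middles the 8.76% stood beside 5.12% of stretches. Compared with their own flanks, from 2 to 10 kb away, H3K9me2 was higher in 49 of 71 domains on arms, 131 of 194 in middles and 29 of 31 on X, with median differences of 0.50, 0.22 and 0.98 from summed counts. Taken from medians of windows, it was higher in 61, 150 and 31. With the same domains and the H3K9me2 ChIP over the input of the other mark, 37 of 71 on arms (52.1%, beside 47.1% of stretches), 3 of 194 in middles (beside 3.18% of stretches) and 5 of 31 on X (16.1%, beside 6.67%) exceeded 1. Flanks were then exceeded in 40, 70 and 20 domains. The excess of H3K9me2 over the flanks in middles thus turned with the input, from 0.22 to -0.14.

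**Figure D4:**
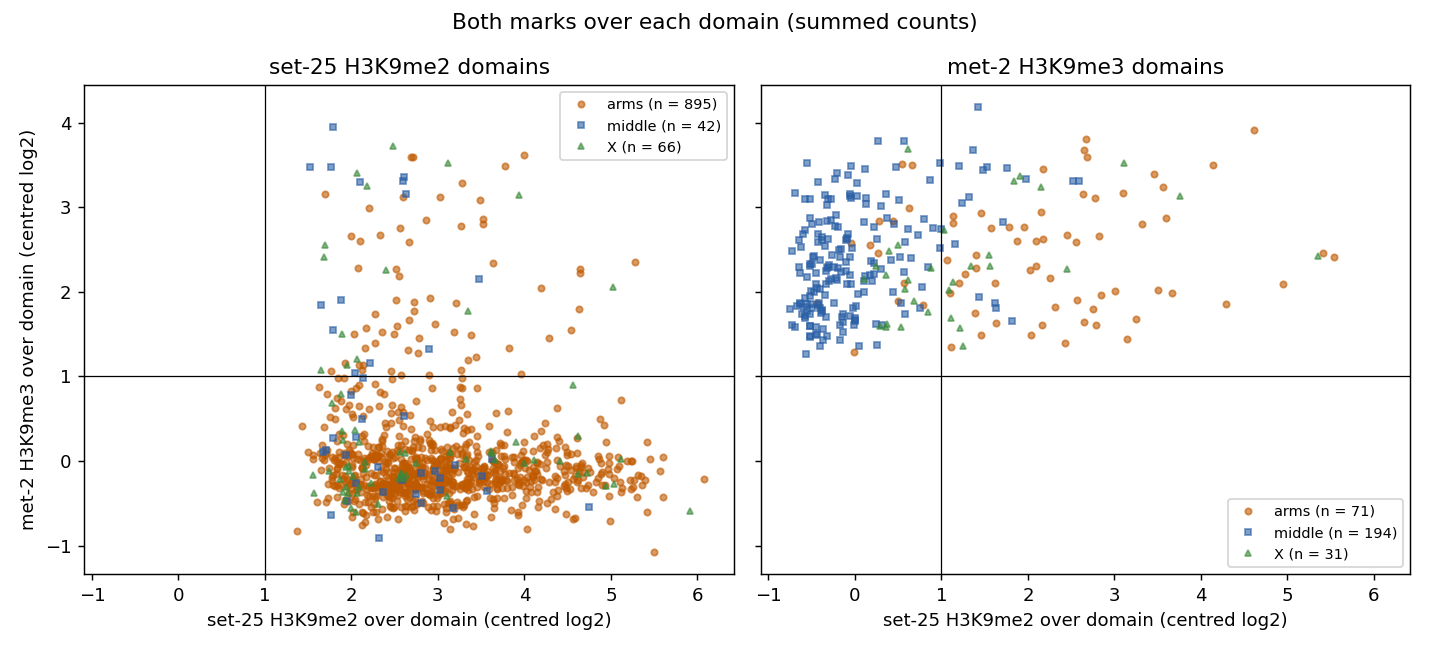
Centred log2 enrichment of set-25 H3K9me2 (x axis) and met-2 H3K9me3 (y axis) from counts summed over each domain, for the 1003 H3K9me2 domains (left) and the 296 H3K9me3 domains (right), with lines at 1. Circles are arms, squares middles and triangles X. H3K9me2 domains of arms lie mostly near 0 for H3K9me3, and 58 of 71 H3K9me3 domains on arms lie right of the line, against 17 of 194 in middles.

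**Figure D5:**
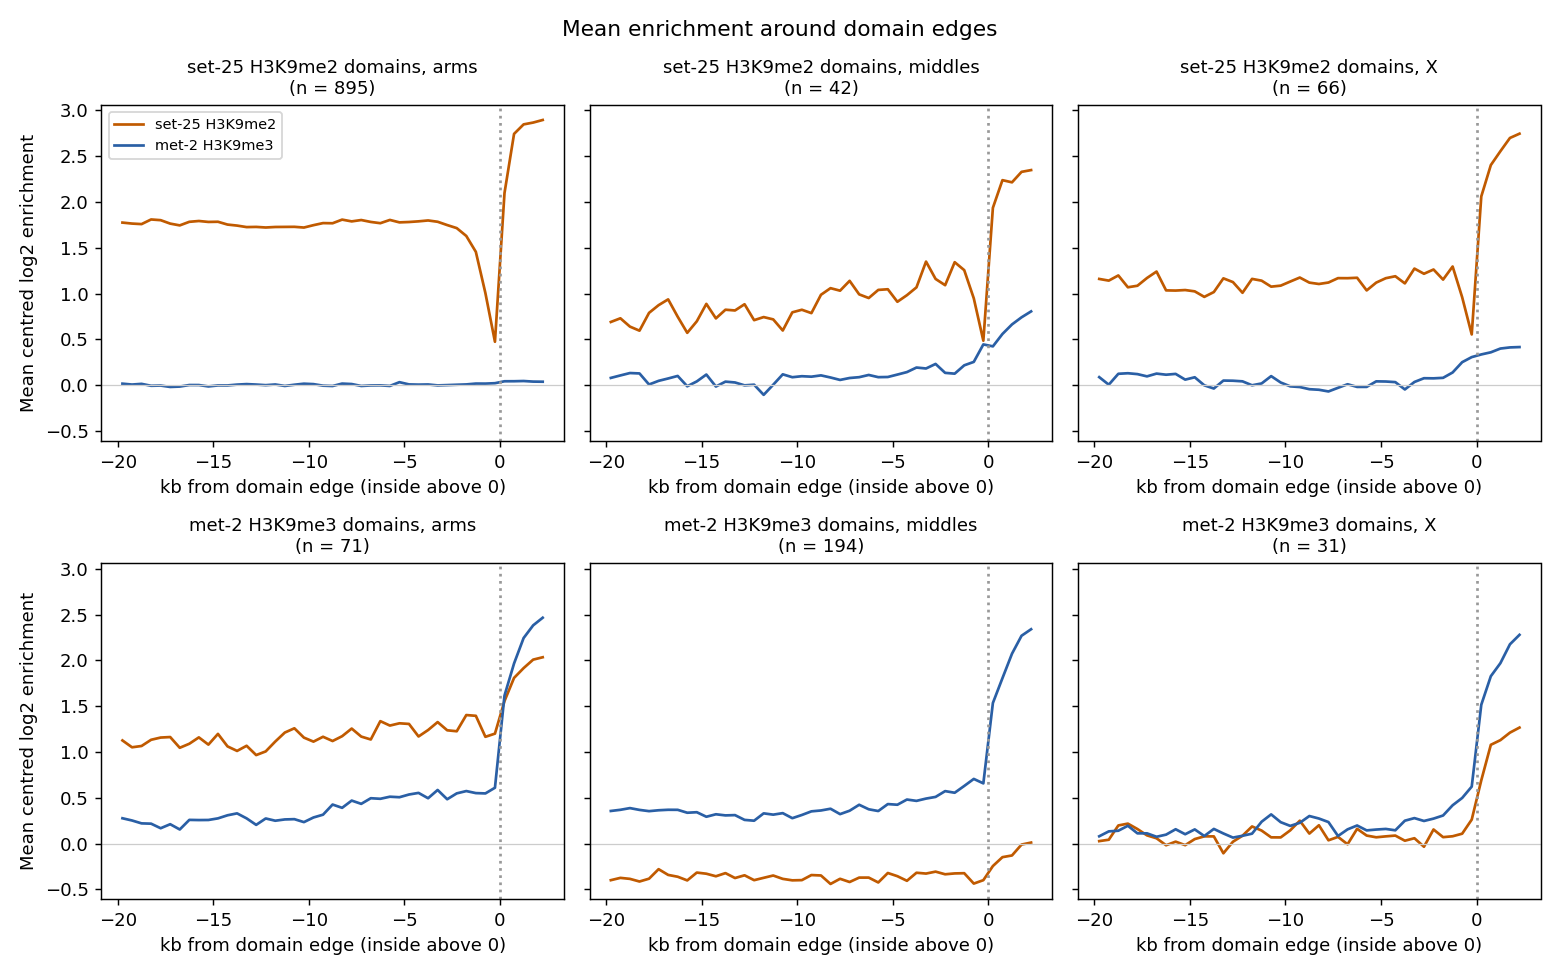
Mean centred log2 enrichment of set-25 H3K9me2 (orange) and met-2 H3K9me3 (blue) by distance from the edge of domains (x axis, kb, inside above 0), over both edges of n domains, with own inputs, for domains of H3K9me2 (top) and H3K9me3 (bottom). At H3K9me2 domains of arms H3K9me3 stays between -0.02 and 0.05 on both sides. At those of middles and X mean H3K9me3 rises inside to 0.81 and 0.42, where the medians are 0.32 and 0.05. At H3K9me3 domains H3K9me2 starts from different levels on arms, in middles and on X.

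Edges of domains were set against own inputs. At the edges of the 895 H3K9me2 domains on arms, mean H3K9me2 rose from 0.47 in the window outside to 2.10 in the window inside, while mean H3K9me3 was 0.02 and 0.04. The surroundings were themselves marked, with mean H3K9me2 of 1.75 at 9.75 kb outside. The few H3K9me2 domains elsewhere differed from those of arms in mean H3K9me3. Over the 42 in middles mean H3K9me3 was 0.10 at 9.75 kb outside and 0.81 at 2.25 kb inside, and over the 66 on X it was -0.01 and 0.42. The medians rose less, from -0.02 to 0.32 in middles and from -0.02 to 0.05 on X. At the edges of H3K9me3 domains on arms, mean H3K9me3 went from 0.61 to 1.62 and mean H3K9me2 from 1.20 to 1.56. In middles mean H3K9me3 went from 0.66 to 1.53 and mean H3K9me2 from -0.40 to -0.25. The step of the mark that defines a domain follows from the definition and only that of the other mark is informative.

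The longest runs with H3K9me2 alone all lay on 2 arms, the left one of III and the right one of V. Intervals below are 95% and cover counting error only. Values of these and the other named runs are with own inputs unless stated. The longest spanned 48.5 kb on V from 18309001 to 18357500, where 40720 ChIP and 18627 input counts gave H3K9me2 of 3.64 (3.62 to 3.67), or 12.5-fold. H3K9me3 was 0.00 there (-0.02 to 0.03), from 17279 and 42794 counts. On III, the 40 kb run from 1861501 to 1901500 reached 5.13 for H3K9me2 (5.11 to 5.15), or 35.0-fold, with H3K9me3 at -0.31 (-0.34 to -0.29). The 33.5 kb run on III from 1524501 to 1558000 reached 5.27 (5.24 to 5.29) with H3K9me3 at -0.22. The remaining runs were both 34 kb long on V, from 19403501 to 19437500 (H3K9me2 3.63, H3K9me3 0.01) and from 19609501 to 19643500 (4.03 and -0.19). H3K9me3 in these 5 runs ran from -0.31 to 0.01 with own inputs, at or under the library's median window. Their class requires H3K9me3 of at most 1 in each window, so a low level is partly set by the selection. H3K9me3 was not taken over the other inputs in these runs. Over all H3K9me2 domains of arms, median H3K9me3 was 0.63 with the input of the other mark, in place of -0.13.

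The longest runs with H3K9me3 alone all lay in middles. The 33.5 kb run on II from 7723001 to 7756500 had H3K9me3 of 2.90 (2.89 to 2.92), or 7.49-fold, from 131687 ChIP and 43692 input counts. H3K9me2 was -0.22 there (-0.28 to -0.17), from 2780 and 18526 counts. On II from 10926001 to 10943000, 17 kb, H3K9me3 reached 3.38 (3.36 to 3.39), or 10.4-fold, with H3K9me2 at -0.09. On V the 20.5 kb run from 6903501 to 6924000 had 2.42 for H3K9me3 and 0.36 for H3K9me2 (0.29 to 0.42), the only one of the 5 whose H3K9me2 interval lay above 0. The runs on III from 5111501 to 5131500 (20 kb) and on V from 6148001 to 6164000 (16 kb) had H3K9me3 of 2.62 and 3.16 and H3K9me2 of -0.09 and -0.04.

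Runs with both marks were shorter. The longest measured 18.5 kb, in the middle of IV from 11974001 to 11992500, with H3K9me2 of 2.61 (2.57 to 2.64) and H3K9me3 of 3.36 (3.34 to 3.37), or 6.09-fold and 10.2-fold. On X a 16 kb run from 3227501 to 3243500 had 2.18 and 3.25. The other 3 lay on the right arm of V. They ran from 17052001 to 17068000 (H3K9me2 3.67, H3K9me3 1.99), from 17097501 to 17110500 (2.75 and 1.79) and from 18443501 to 18456000, where H3K9me2 reached 5.54 (5.49 to 5.58), or 46.4-fold, and H3K9me3 2.42 (2.40 to 2.43). The first pair lay within the 500 kb bin of V that was rich in both marks. H3K9me2 of the X run was 0.85 without centring, and the other values of these 5 runs stayed above 1 without centring and with each other input. Of all 3351 windows with both marks, 28.8% lay where domains of both overlapped, 19.5% in H3K9me2 domains only, 16.9% in H3K9me3 domains only and 34.8% in neither kind.

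The longest domain of each chromosome, with own inputs, gave the same picture for H3K9me2 and a mixed one for H3K9me3. The longest H3K9me2 domains of the 6 chromosomes, 23 to 48.5 kb long, had H3K9me3 between -0.33 and 0.00. The longest H3K9me3 domains measured 16.5 to 34 kb. Their H3K9me2 was -0.22 on II and 0.13 on V, but 1.37 on I from 4058001 to 4079000, 1.48 on III from 6746501 to 6773000, 1.32 on IV from 5982001 to 6011000 and 2.16 on X. In the 3 autosomal ones with raised H3K9me2, 56.9% to 79.2% of windows passed 2-fold for H3K9me2.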

How the data were processed

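The deposited table holds raw counts per window, 1 column per group, for the 8 groups of the labels. The unit was read from the values. For the aligner, the counting tool, duplicate removal and repeats, the status is the same: not given in the sources used here. Columns were assigned by name, and no name says whether both replicates were added. That of the met-2 H3K9me3 ChIP ends in 1. The last line was incomplete and was left out (1 line). Each ChIP and input was scaled to its total, 0.1 CPM was added to both, and the log2 ratio was centred on the median of kept windows. Region values came from summed counts, with exact (Clopper-Pearson) 95% intervals of the ChIP share. These and the Poisson intervals cover counting error only. The depth per library is given with the results.

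The windows' chromosome ends differ from WBcel235, the assembly of the gene table at hand, so no gene was placed and no sequence is shown. Positions count from 1 on the build of the table. No test, paired fit or gene family count was run. Regions were named by rule: the 5 longest runs of each class, the longest domain per chromosome and the richest 500 kb bin per mark. The windows, classes and lists were chosen with earlier results of these data known. Python 3.11.15, numpy 2.4.6, pandas 2.3.3, scipy 1.17.1 and matplotlib 3.10.9 were used, and the scripts were tested on simulated data. Alternatives changed the threshold, centring, pseudocount, floor, window size, input and width of arms.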

Additional observations from a re-analysis of the deposited data

Results flagged for a closer look

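Of the columns outside the comparison, 2 rose above their inputs with its classes. H3K9me2 of met-2 embryos, centred on its own median, had a median of 0.45 (quartiles 0.17 and 0.72) in windows with met-2 H3K9me3 alone and 0.65 in windows with both marks, against -0.06 in windows with neither. It comes from the same strain as the H3K9me3 library. The H3K9me3 library labelled set-25 had a median of 0.43 (quartiles -0.28 and 0.95) in windows with set-25 H3K9me2 alone and 0.45 in those with both, against -0.20 in windows with neither. It held no count in 16520 kept windows.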

How the results depend on the processing

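The concentration of H3K9me2 alone on arms was kept under the alternatives run with arms of unchanged width. Arms as the outer 33% hold more of all windows than the 49.5% of kept autosomal windows on arms as reported. Their share of all windows was not computed, so 96.0% for H3K9me2 alone and 33.5% for H3K9me3 alone have no reference. With unchanged width, the arm share of H3K9me2 alone was 85.9% to 93.9%, against 89.7% as reported. It was 85.9% at a threshold of 0.5, 93.1% at 2, 93.9% without centring, 92.05% with quantile normalisation, 90.95% with a pseudocount of 1 CPM, 89.3% with a floor of 1 count, 93.3% in 5 kb windows, 89.2% over the other strain's input, 88.2% over the other mark's and 96.0% with arms as the outer 33%. The arm share of H3K9me3 alone, 14.98% as reported, was 20.4% at a threshold of 0.5, 16.4% at 2, 20.5% without centring, 28.4% with quantile normalisation, 13.5% and 16.5% with floors of 50 and 1 counts, 10.5% in 5 kb windows, 22.5% over the other strain's input, 46.2% over the other mark's, 21.8% over the sum of all 4 inputs and 33.5% with the wider arms.

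Sizes of classes depended on threshold and scaling. At 0.5, H3K9me3 alone covered 11.03% of windows and both 5.81%, and H3K9me3 formed 541 domains. At 2, H3K9me2 alone covered 12.3%, H3K9me3 alone 1.68% and both 0.399%, with 440 and 114 domains. Without centring, H3K9me2 alone covered 9.73% and both 0.526%, with 332 H3K9me2 domains. Quantile normalisation, which gives both marks the same distribution, gave 14.3% to each mark alone and 3.07% to both, with 666 and 549 domains. With the input of the other mark, H3K9me3 alone covered 15.3% and both 3.76%.

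The excess of H3K9me2 among H3K9me3 windows, 17.6 percentage points on arms and 4.24 in middles as reported, was above 0 in 11 of 12 alternatives for each. With the input of the other mark, where swapping both inputs can by itself lower the overlap, it reversed to -7.21 and -0.97. The cause was not tested. On arms it was 5.75 at a threshold of 0.5, 23.6 at 2, 15.7 without centring, 4.78 with quantile normalisation, 21.1 with 1 CPM, 10.8 with the input of the other strain, 10.9 over the sum of inputs and 15.6 without windows above 3 times an input's median, an alternative chosen after seeing the data. In middles it was 3.03 at 0.5, 1.11 without centring, 0.82 with quantile normalisation, 7.55 over the other strain's input and 1.99 over the sum. The share of H3K9me3 domains with H3K9me2 was 81.7% on arms and 8.76% in middles, beside 57.5% and 5.12% of 5 kb stretches. Over the other mark's input it was 49.2% and 2.86%, beside 47.1% and 3.18%. On arms over the sum it was 63.4%, beside 53.7%, and in middles over the other strain's input 13.97%, beside 5.37%. At 2 it was 65.5% on arms, and without centring 52.0% and 1.45%. Stretches were not taken in these settings. Of single arm windows, 27.0% passed for H3K9me2 at 2 and 22.1% without centring, against 46.7% as reported. In middles 1.51% passed without centring.

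The genome-wide r of 0.010 reversed to -0.0068 with 1 CPM, -0.047 in 5 kb windows and -0.18 over the other mark's input. It was 0.0051 with quantile normalisation, 0.0046 at a floor of 50 counts, 0.017 at 1, 0.060 over the other strain's input, 0.076 over the sum and 0.0051 without the most covered windows. Of 80 values of the named runs under other inputs or without centring, 79 stayed above 1. These are values of the mark or marks that each run was called for. The other mark of the single-mark runs was not recomputed, so its low level there was not varied. Domains were not formed from 5 kb windows. No paired analysis was possible because the table holds 1 column per group, and a number ends only the name of the met-2 H3K9me3 ChIP column, and for the same reason no replicate could be left out. The 41 counts of the median set-25 H3K9me2 window limit single windows more than domains.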
